A study of Mus musculus with 20 samples.

Results

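Pecam1, Cdh5, Kdr, Cldn5, Egfl7, Vwf, Emcn and Sox17, all markers of endothelial cells, and the selectin genes Selp and Sele were followed in fibroadipogenic progenitors, which had been sorted with a gate against the endothelial surface protein CD31. The 10 genes were named as a list and taken by symbol from the count tables of 3 days, which share 24394 symbols. They were chosen with these comparisons already known. Their differences between tumour-bearing and sham mice and their correlations are therefore given as a description. Counts of the 10 genes past a threshold in these comparisons are listed, and nothing is read from them.

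Endothelial cells line the blood vessels, and muscle is rich in capillaries. They are held together by CD31, the product of Pecam1, by VE-cadherin, the product of Cdh5, and by claudin-5 at tight junctions, and they respond to vascular endothelial growth factor through the receptor encoded by Kdr. The selectins catch passing leukocytes: P-selectin, the product of Selp, is stored with von Willebrand factor in granules that are released within minutes and is also carried by platelets, whereas E-selectin, the product of Sele, is made after cytokine stimulation. SCA-1, the surface protein by which the sort picked its cells, is carried by many endothelial cells of the mouse as well as by progenitors.

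Messenger RNA was sequenced from progenitors of the hindlimb muscle of male C57BL/6J mice, in a study of muscle during pancreatic cancer. KPC mice had received 2 M cells (megacells) of the pancreatic tumour line KPCY in 50 µL in the pancreas, and the control mice had a sham operation without tumour cells. The libraries were 4 KPC and 3 control libraries at day 14, 3 KPC and 3 control libraries at day 21, and 3 KPC and 4 control libraries at day 26. The sort kept nucleated, viable, SCA-1-positive cells without CD31, CD45 or α7-integrin. All tumours derive from a single cultured line, each library comes from a single day, and the age of the mice is not given in the labels. The labels call the libraries biological replicates, and p-values measure the spread between these libraries.

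Each library held between 12.9 and 26.4 M counts (megacounts), and values are CPM (counts per megacount) after scaling over the 20 libraries unless said otherwise. Of the 6 progenitor and sort genes, Pdgfra, the receptor gene that marks these progenitors, lay at 1194 to 1672 CPM in the 10 KPC libraries and at 1227 to 1441 CPM in the 10 control libraries. Ly6a, the gene of SCA-1, lay at 525 to 1202 CPM in KPC libraries and 908 to 1465 CPM in control libraries. Ptprc, the gene of CD45, lay at 0.0486 to 5.73 CPM in KPC libraries and 0.0401 to 1.00 CPM in control libraries, and Itga7, the gene of α7-integrin, at 2.96 to 18.7 CPM in KPC libraries and 1.83 to 5.42 CPM in control libraries. Cd34, the gene of a surface sialomucin of progenitors and endothelium, lay at 323 to 2064 CPM in KPC libraries and 2041 to 2745 CPM in control libraries. Lum, the gene of the matrix proteoglycan lumican, lay at 90.8 to 1545 CPM in KPC libraries and 655 to 1492 CPM in control libraries, and Dcn, the decorin gene, at 13843 to 22130 CPM in KPC libraries and 11413 to 17813 CPM in control libraries. KPC replicates 1 and 2 of day 26 were the lowest of all libraries for Cd34 and for Lum. EdgeR called Itga7 higher in KPC at day 14 (log2 fold change 1.71 ± 0.34, adjusted p 0.0327), and at day 21 Cd34 lower (-1.14 ± 0.15, adjusted p 5.4e-04) and Dcn higher (0.49 ± 0.14, adjusted p 0.0403). KPC replicate 1 of day 26 stood apart, with the highest level of 8 of the 10 genes among all 20 libraries. Fold changes of the 10 genes at day 26 are therefore given with and without this library. Counts of genes at an unadjusted p under 0.05 on that day include this library. The leading number of the library codes separates KPC from control libraries fully at days 14 and 21, so that a batch behind this number and the tumour cannot be told apart.

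Transcripts of the 8 endothelial markers were a small share of each library. Their summed level was 200, 313, 197 and 211 CPM in KPC replicates 1 to 4 of day 14, against 94.3, 74.6 and 36.3 CPM in the controls of that day. At day 21 it was 479, 275 and 131 CPM in KPC replicates, against 74.4, 78.7 and 68.3 CPM in controls. At day 26 it was 687, 81.3 and 51.3 CPM in KPC replicates, against 64.4, 79.6, 22.9 and 29.8 CPM in controls. Every KPC library was above every control at days 14 and 21, whereas at day 26 replicate 1 was far above the controls, replicate 2 just above them and replicate 3 inside their range. The sum took between 0.00227% and 0.0734% of the counts of a library. In these bulk libraries, fewer cells of a type and less RNA per cell cannot be told apart.

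Pecam1 (chr11:106654217-106750628, minus strand, GRCm38) encodes the antigen against which the gate was set, and its transcript was counted in every library. It had 46.1, 75.4, 55.4 and 46.0 CPM in KPC replicates of day 14, against 24.7, 16.5 and 8.10 CPM in controls. At day 21 it had 144, 86.0 and 38.4 CPM in KPC replicates, against 19.4, 19.9 and 15.2 CPM in controls. At day 26 the values were 241, 27.5 and 12.6 CPM in KPC replicates and 12.9, 16.1, 4.52 and 7.30 CPM in controls. The groups were apart at the first 2 days, and at day 26 KPC replicate 3 lay inside the control range. The log2 fold change of KPC over control, fitted by edgeR within each day and given with its standard error, was 1.77 ± 0.39 at day 14, 2.30 ± 0.51 at day 21 and 3.23 ± 0.96 at day 26. Without KPC replicate 1 the value of day 26 was 0.97 ± 0.51.

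Cdh5 (chr8:104101625-104144511, plus strand), which encodes the cadherin of endothelial adherens junctions, followed the same pattern. It lay at 51.2, 69.4, 55.9 and 53.6 CPM in KPC replicates of day 14 and at 27.3, 22.6 and 10.4 CPM in controls. For day 21 the values were 125, 64.9 and 33.0 CPM in KPC replicates and 20.9, 23.8 and 21.0 CPM in controls. For day 26 they were 153, 17.8 and 11.6 CPM in KPC replicates and 17.6, 24.9, 7.30 and 6.38 CPM in controls. KPC replicates 2 and 3 of day 26 were thus within the control range, and all KPC libraries of the earlier days were above their controls. The log2 fold changes were 1.53 ± 0.30, 1.76 ± 0.50 and 2.14 ± 0.90 at days 14, 21 and 26, and 0.06 ± 0.56 at day 26 without KPC replicate 1.

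Cldn5 (chr16:18776847-18778262, plus strand), the tight junction gene, kept its KPC libraries above the controls at each of the 3 days. Its levels were 8.44, 14.8, 5.59 and 17.7 CPM in KPC replicates of day 14 and 2.71, 2.13 and 1.67 CPM in controls. At day 21, KPC replicates had 20.1, 21.0 and 16.5 CPM and controls 3.31, 4.39 and 3.29 CPM. At day 26, KPC replicates had 35.1, 3.64 and 4.24 CPM and controls 2.97, 2.34, 1.41 and 1.79 CPM. At day 21 its KPC libraries lay closer together, relative to their mean, than those of the other markers. The log2 fold changes were 2.44 ± 0.39, 2.39 ± 0.22 and 2.78 ± 0.80, and 0.90 ± 0.39 at day 26 without KPC replicate 1.

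**Figure D1:**
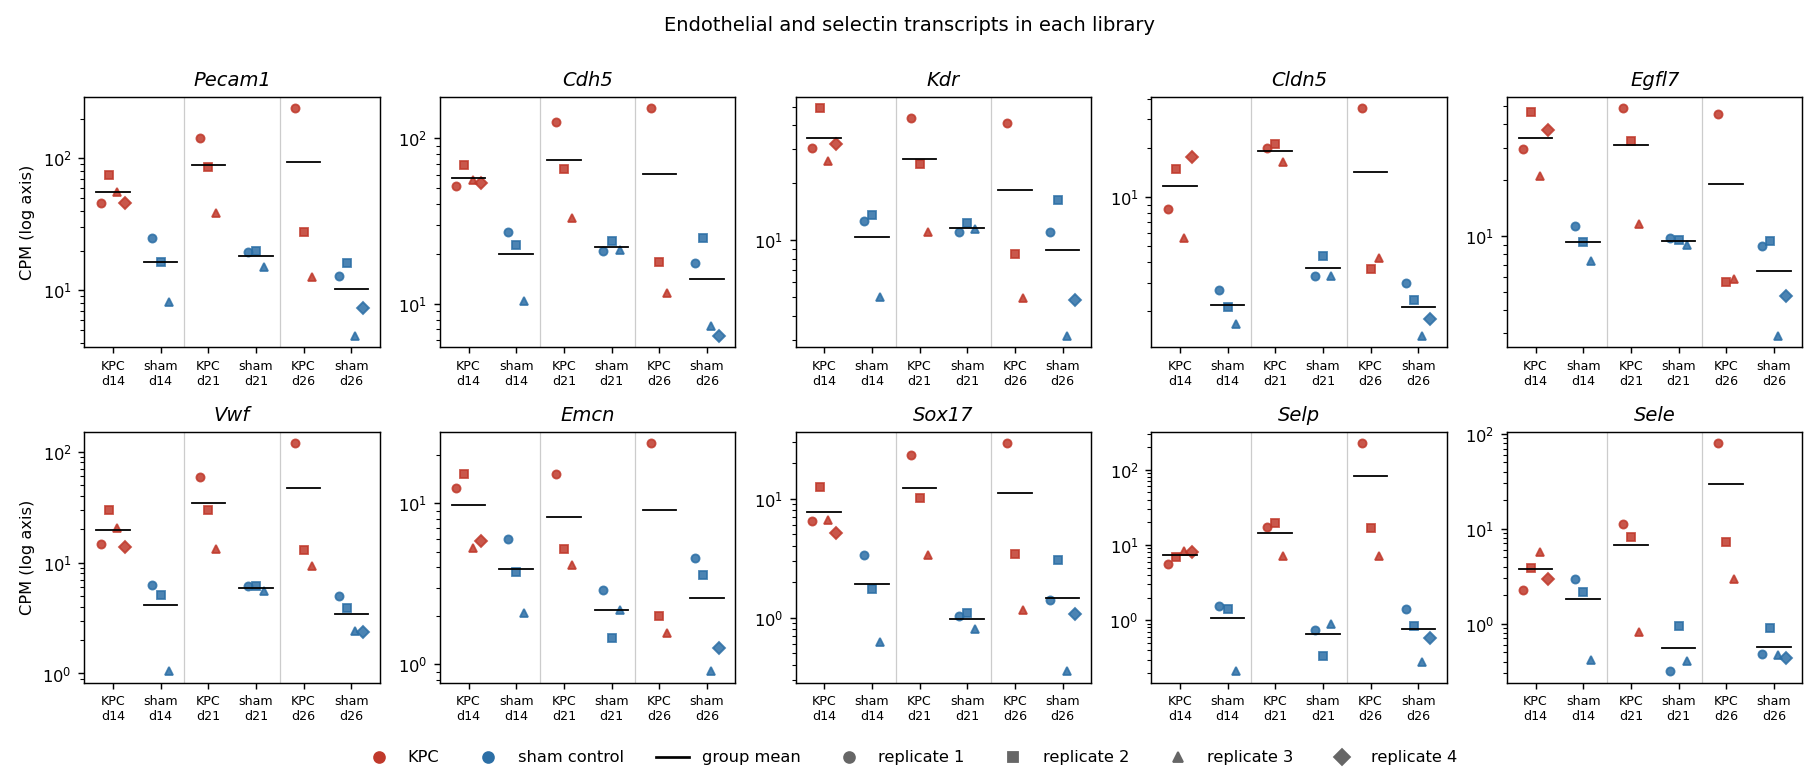
Level of each of the 10 genes in each of the 20 libraries, in CPM on a log axis, with KPC in red and sham control in blue side by side at days 14, 21 and 26; marker shapes give the replicate number and black lines the group means. KPC replicate 1 of day 26 (circle) is far above the other KPC libraries of that day in every panel, and in the Selp panel all 10 KPC libraries lie above all 10 controls.

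Kdr (chr5:75932827-75978458, minus strand), the gene of the main signalling receptor for vascular endothelial growth factor, had its highest level of all libraries in KPC replicate 2 of day 14. Its values were 30.5, 49.2, 25.9 and 31.8 CPM in KPC replicates of day 14 and 12.6, 13.5 and 5.02 CPM in controls. At day 21 they were 43.6, 25.1 and 11.0 CPM in KPC replicates and 11.0, 12.3 and 11.4 CPM in controls. At day 26 they were 41.3, 8.41 and 4.95 CPM in KPC replicates and 11.0, 16.3, 3.14 and 4.83 CPM in controls. The groups were apart at day 14 alone. The log2 fold change was 1.75 ± 0.37 at day 14, 1.20 ± 0.45 at day 21 and 1.07 ± 0.80 at day 26, where it was -0.40 ± 0.65 without KPC replicate 1.

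Egfl7 (chr2:26580014-26593120, plus strand) encodes a protein that endothelial cells secrete into their matrix, and the gene is host to the microRNA miR-126. It lay at 29.6, 46.4, 21.2 and 37.5 CPM in KPC replicates of day 14 and at 11.4, 9.27 and 7.37 CPM in controls. At day 21 KPC replicates had 49.0, 32.4 and 11.6 CPM, against 9.73, 9.53 and 8.95 CPM in controls, and at day 26 KPC replicates had 45.7, 5.64 and 5.85 CPM, against 8.85, 9.44, 2.91 and 4.79 CPM in controls. The groups were apart at days 14 and 21 and overlapped at day 26. Its log2 fold change was 1.87 ± 0.26, 1.72 ± 0.49 and 1.58 ± 0.78 on the 3 days, and -0.17 ± 0.48 at day 26 without KPC replicate 1. Exons of Egfl7 overlap Agpat2 and Mir126b on the opposite strand, and since no label or file header says how strand was used in counting, the split of reads among these genes is uncertain.

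Vwf (chr6:125546774-125686679, plus strand), which encodes von Willebrand factor, the large glycoprotein that tethers platelets, had no overlap between the groups at any day, and all 10 KPC libraries, from 9.34 CPM upwards, were above all 10 controls, the highest of which had 6.32 CPM. It had 14.8, 29.9, 20.6 and 13.8 CPM in KPC replicates of day 14 and 6.32, 5.13 and 1.05 CPM in controls. At day 21, KPC replicates had 59.4, 30.1 and 13.3 CPM and controls 6.15, 6.18 and 5.54 CPM. At day 26, KPC replicates had 119, 12.9 and 9.34 CPM and controls 5.03, 3.93, 2.40 and 2.37 CPM. The log2 fold changes were 2.26 ± 0.59, 2.52 ± 0.54 and 3.81 ± 0.89. Without KPC replicate 1 the value at day 26 was 1.70 ± 0.36.

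Emcn (chr3:137341067-137432185, plus strand) encodes endomucin, a mucin-like surface protein of capillary and venous endothelium. Its levels were 12.5, 15.3, 5.29 and 5.81 CPM in KPC replicates of day 14 and 5.99, 3.73 and 2.09 CPM in controls. At day 21 they were 15.3, 5.22 and 4.13 CPM in KPC replicates and 2.88, 1.46 and 2.17 CPM in controls, and at day 26 they were 23.6, 2.00 and 1.56 CPM in KPC replicates and 4.61, 3.58, 0.903 and 1.26 CPM in controls. The groups were apart at day 21 alone. The log2 fold change was 1.32 ± 0.46, 1.91 ± 0.50 and 1.84 ± 1.00, and -0.53 ± 0.71 at day 26 without KPC replicate 1.

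Sox17 (chr1:4490931-4497354, minus strand) encodes a transcription factor of arterial endothelium. It lay at 6.54, 12.6, 6.63 and 5.09 CPM in KPC replicates of day 14 and at 3.37, 1.73 and 0.627 CPM in controls. At day 21, KPC replicates had 23.1, 10.1 and 3.35 CPM and controls 1.02, 1.08 and 0.802 CPM. At day 26, KPC replicates had 29.1, 3.41 and 1.16 CPM and controls 1.39, 3.03, 0.353 and 1.06 CPM. KPC libraries were above the controls at days 14 and 21, and 1 of 3 was inside the control range at day 26. The log2 fold changes were 2.01 ± 0.50, 3.64 ± 0.67 and 2.97 ± 1.08, and 0.64 ± 0.80 at day 26 without KPC replicate 1.

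Selp, like Vwf, had all 10 KPC libraries above all 10 controls. It had 5.58, 6.97, 8.35 and 8.16 CPM in KPC replicates of day 14 and 1.57, 1.40 and 0.209 CPM in controls. At day 21 it had 17.2, 19.4 and 7.24 CPM in KPC replicates and 0.749, 0.330 and 0.883 CPM in controls. At day 26 it had 224, 16.9 and 7.17 CPM in KPC replicates and 1.39, 0.845, 0.275 and 0.580 CPM in controls. Across all days the lowest KPC library, at 5.58 CPM, was above the highest control, at 1.57 CPM. These levels rest on 112 to 4018 counts in KPC libraries and on 4 to 33 counts in control libraries, so the control values carry a large counting error. The log2 fold change was 2.79 ± 0.46 at day 14, 4.44 ± 0.46 at day 21 and 6.82 ± 1.29 at day 26. Without KPC replicate 1 the value of day 26 was 3.98 ± 0.58. Selp shares exon sequence with Gm16548 on the opposite strand. Since the strand setting of the counting is not given, the split of reads between these genes is uncertain.

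Sele overlapped between the groups at the earlier days and was apart at day 26. It lay at 2.27, 3.90, 5.74 and 2.99 CPM in KPC replicates of day 14 and at 2.94, 2.13 and 0.418 CPM in controls. At day 21 it lay at 11.2, 8.15 and 0.826 CPM in KPC replicates and at 0.315, 0.943 and 0.401 CPM in controls, with KPC replicate 3 inside the control range. At day 26 it lay at 79.2, 7.23 and 2.93 CPM in KPC replicates and at 0.485, 0.895, 0.471 and 0.435 CPM in controls, and the groups were apart. The log2 fold change was 1.02 ± 0.53, 3.61 ± 0.90 and 5.72 ± 1.14, and 3.13 ± 0.50 at day 26 without KPC replicate 1. Sele counts were 17 to 1422 in KPC libraries and 8 to 62 in control libraries.

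Both selectin genes lie on mouse chromosome 1 and are transcribed from the same strand. In the GENCODE vM21 annotation of GRCm38, the build called mm10 in the submitters' notes, Sele spans chr1:164048234-164057677 and Selp spans chr1:164115264-164150026, with a gap of 57.6 kb. The RefSeq promoter windows of the selectins, 250 bases before to 50 bases after the start, are shown with that of Kdr, because the selectin genes had the largest and Kdr the smallest fold change of the 10 genes at day 26. The windows are chr1:164115014-164115313 on the plus strand for Selp, chr1:164047984-164048283 on the plus strand for Sele and chr5:75978406-75978705 on the minus strand for Kdr, all on GRCm38.p6. Capitals mark matches to the motifs described next.
Selp: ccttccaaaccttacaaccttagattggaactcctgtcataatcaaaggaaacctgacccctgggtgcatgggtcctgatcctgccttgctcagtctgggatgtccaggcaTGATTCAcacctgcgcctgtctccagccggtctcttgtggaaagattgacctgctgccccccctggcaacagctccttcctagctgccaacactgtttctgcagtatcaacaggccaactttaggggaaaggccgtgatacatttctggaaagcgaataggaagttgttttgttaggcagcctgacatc
Sele: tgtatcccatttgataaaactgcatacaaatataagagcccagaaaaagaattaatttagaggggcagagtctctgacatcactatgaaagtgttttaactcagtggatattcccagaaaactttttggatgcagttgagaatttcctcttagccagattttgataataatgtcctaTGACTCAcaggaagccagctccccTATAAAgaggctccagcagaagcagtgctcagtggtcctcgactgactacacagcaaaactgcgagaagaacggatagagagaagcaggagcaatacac
Kdr: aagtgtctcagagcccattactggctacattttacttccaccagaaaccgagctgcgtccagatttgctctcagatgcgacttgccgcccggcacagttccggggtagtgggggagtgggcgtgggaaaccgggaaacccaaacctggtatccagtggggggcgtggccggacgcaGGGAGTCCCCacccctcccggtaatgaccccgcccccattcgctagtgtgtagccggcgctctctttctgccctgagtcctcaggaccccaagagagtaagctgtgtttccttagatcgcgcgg

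The table held 8 windows for 6 of the 10 genes, namely Selp, Sele, Kdr, Cldn5, Emcn and Egfl7, and 5 motifs were searched on both strands. The AP-1 motif TGANTCA, which is bound by Fos and Jun dimers, matched as TGATTCA in the Selp window, 139 to 133 bases before the start, and as TGACTCA in the Sele window, 73 to 67 bases before it. It was found in 7.81% of 32851 promoter windows of the same length. The TATA box, searched as TATAAA, matched in the Sele window 49 to 44 bases before the start and is present in 13.6% of windows. The κB consensus of the NF-κB family matched in the Kdr window as GGGAGTCCCC, 74 to 65 bases before the start, and in 4.51% of all windows, and it had no match in the selectin windows. The ETS motif CCGGAAG, in 8.86% of all windows, and the GATA motif AGATAA, in 11.2%, were in none of the members' windows. No motif overlapped another. A match is a description of the letters in the window, and a missing match says nothing about the factor.

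Compared per kilobase of exon, the order of the genes differed between the groups. Cdh5 was the most abundant in KPC libraries of day 14, at 13.7 ± 1.94 CPM per kb (SD, n = 4), and in the controls of that day, at 4.78 ± 2.08 CPM per kb (SD, n = 3). Egfl7 at 9.40 ± 3.02, Pecam1 at 8.95 ± 2.22 and Cldn5 at 8.21 ± 3.94 CPM per kb followed in KPC libraries of day 14 and did not differ beyond their spread. Selp was at 1.65 ± 0.289 CPM per kb in KPC libraries of day 14, near Emcn at 1.80 ± 0.919 and Sox17 at 1.61 ± 0.693 CPM per kb, whereas in controls it had the lowest mean of the 10 genes, at 0.240 ± 0.168 CPM per kb. At day 21 Selp was at 3.31 ± 1.47 CPM per kb in KPC libraries, above Kdr at 2.94 ± 1.81 by less than the spread, and at 0.148 ± 0.0653 CPM per kb in controls, again the lowest. At day 26 the mean of Selp was 18.7 ± 27.7 CPM per kb in KPC libraries (SD, n = 3), which was the highest of the 10 but rested on replicate 1, and 0.175 ± 0.108 CPM per kb in controls (SD, n = 4). Vwf, the longest transcript of the list, was at 1.23 ± 0.458 CPM per kb in KPC libraries of day 14 and at 0.259 ± 0.172 CPM per kb in controls.

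**Figure D2:**
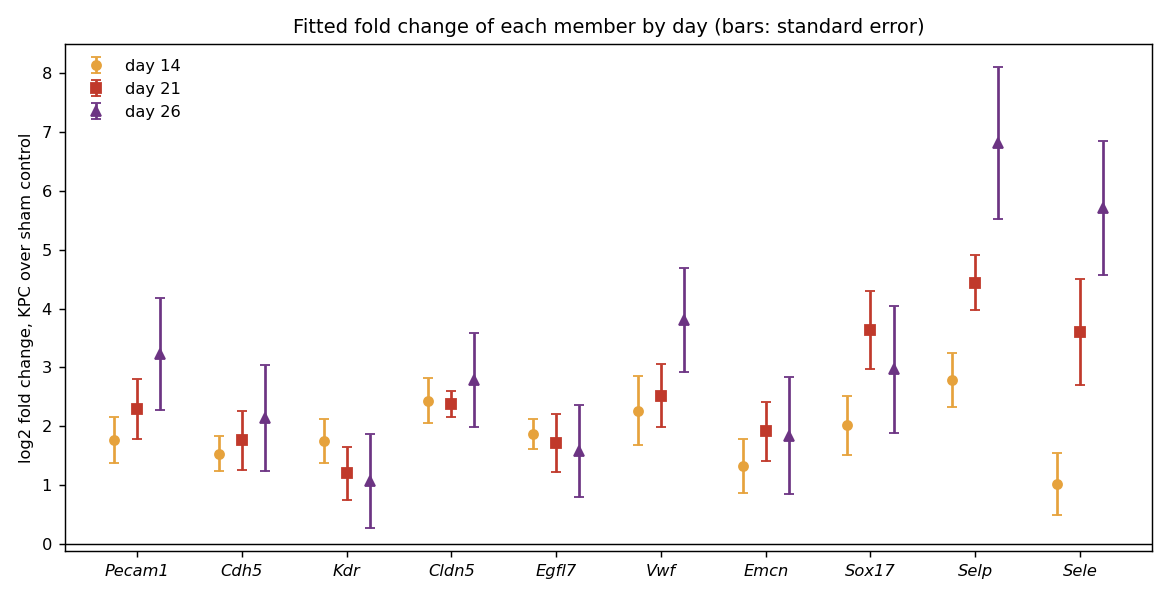
Fitted log2 fold change of KPC over sham control for each gene at day 14 (orange circles), day 21 (red squares) and day 26 (purple triangles), with bars of 1 standard error. All 30 values are above 0. Selp goes from 2.79 at day 14 through 4.44 at day 21 to 6.82 at day 26 (3.98 without KPC replicate 1). Kdr goes from 1.75 through 1.20 to 1.07. Without KPC replicate 1, which is not drawn apart here, 7 of the 10 values of day 26 are above 0 and Kdr is below 0.

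By the threshold of an adjusted p under 0.05 in edgeR's quasi-likelihood test, 3 of the 10 genes were past it at day 14 (Cldn5, Egfl7 and Selp), where 0.682% of all 13344 genes were past it and higher. At day 21 the count was 7 of 10, all but Cdh5, Kdr and Egfl7, where 6.38% of 13154 genes were past it and higher. At day 26 it was 0 of 10, and 0% of 13157 genes. At an unadjusted p under 0.05, 7 of the 10 genes and 20.3% of all genes were higher at day 26, and DESeq2 put 4 of the 10 past the adjusted threshold as higher, beside 12.6% of all genes. The number of genes with KPC libraries all above the controls was 8 at day 14, 8 at day 21 and 4 at day 26, beside 7.52%, 16% and 14.5% of all genes. The genes were chosen on these comparisons, so nothing is read from the counts. The median log2 fold change of the 10 genes was 1.82, 2.34 and 2.88 on the 3 days, beside values within 0.01 of 0 over all genes tested, and it was 0.77 at day 26 without KPC replicate 1.

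The count of 10 genes past the threshold depended on single libraries. At day 21 it was 2 without control replicate 1, 2 or 3, where 2.76% to 3.35% of all genes were called higher, 4 without KPC replicate 2, beside 4.35%, and 10 without KPC replicate 3, beside 5.27%. At day 14 it was 6 without control replicate 1 or 3, beside 0.728% and 0.183%. The count of day 26 was 6 without KPC replicate 3, beside 25.7%, and 0 without KPC replicate 1. With no filter on low counts it was 4 at day 21, beside 5.17%. DESeq2 gave 9, 10 and 4 at days 14, 21 and 26, beside 2.37%, 8.17% and 12.6% of all genes called higher. An edgeR fit over all 20 libraries gave 0, 1 and 7, beside 0%, 1.94% and 19%.

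The selectin transcripts were also set against Cdh5 within each library, which removes the part of a difference that is shared with that marker. Per 100 Cdh5 counts there were 10.9, 10.0, 14.9 and 15.2 Selp counts in KPC replicates of day 14 and 5.75, 6.19 and 2.02 in controls. At day 21 there were 13.8, 29.9 and 21.9 in KPC replicates and 3.58, 1.39 and 4.21 in controls. At day 26 there were 147, 94.7 and 61.7 in KPC replicates and 7.93, 3.39, 3.76 and 9.09 in controls. The KPC libraries were above the controls at each day, and at day 26 this included replicates 2 and 3, in which Cdh5 itself was within the control range. The mean difference on the log2 scale was 1.59 at day 14, 2.92 at day 21 and 4.11 at day 26, with an SD within groups of 0.62, 0.73 and 0.69. With Pecam1 as the denominator it was 1.34, 2.37 and 3.25, and with Tie1, another endothelial receptor gene, 1.59, 2.76 and 4.73. Without KPC replicate 1 the Cdh5 ratio of day 26 was 3.80.

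Sele per 100 Cdh5 counts overlapped between the groups at day 14, with 6.47 ± 2.59 in KPC libraries (SD, n = 4) and 8.09 ± 3.58 in controls (SD, n = 3), and at day 21, with 8.01 ± 5.09 in KPC libraries and 2.46 ± 1.31 in controls (SD, n = 3 each). At day 26 it was 51.9, 40.6 and 25.2 in KPC replicates and 2.76, 3.59, 6.45 and 6.82 in controls, so the groups were apart. The mean log2 difference at day 26 was 3.04, and 2.81 without KPC replicate 1.

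Vwf and Kdr were set against Cdh5 in the same way. Vwf per 100 Cdh5 counts was 33.7 ± 7.79 in KPC libraries of day 14 and 18.7 ± 7.42 in controls, 44.7 ± 3.97 in KPC libraries of day 21 and 27.3 ± 1.90 in controls, and 77.0 ± 3.99 in KPC libraries of day 26 and 28.6 ± 9.23 in controls (SD), with the groups apart at each day. Its log2 difference at day 21, 0.71 with Cdh5, was 0.16 with Pecam1 as the denominator. Kdr per 100 Cdh5 counts was 59.0 ± 10.0 in KPC libraries of day 14 and 51.5 ± 7.34 in controls, which overlapped. At day 21 it was 34.9, 38.7 and 33.3 in KPC replicates and 52.6, 51.5 and 54.5 in controls, which did not overlap, and at day 26 it was 27.1, 47.2 and 42.6 in KPC replicates and 62.8, 65.3, 43.0 and 75.8 in controls, which overlapped. The log2 difference for Kdr was 0.19 at day 14, -0.57 at day 21 and -0.67 at day 26 with Cdh5, and -0.73 and -0.05 at days 21 and 26 with Tie1. Emcn and Egfl7 ratios overlapped between the groups at each day, and those of Pecam1 and Sox17 were apart at day 21 alone.

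**Figure D3:**
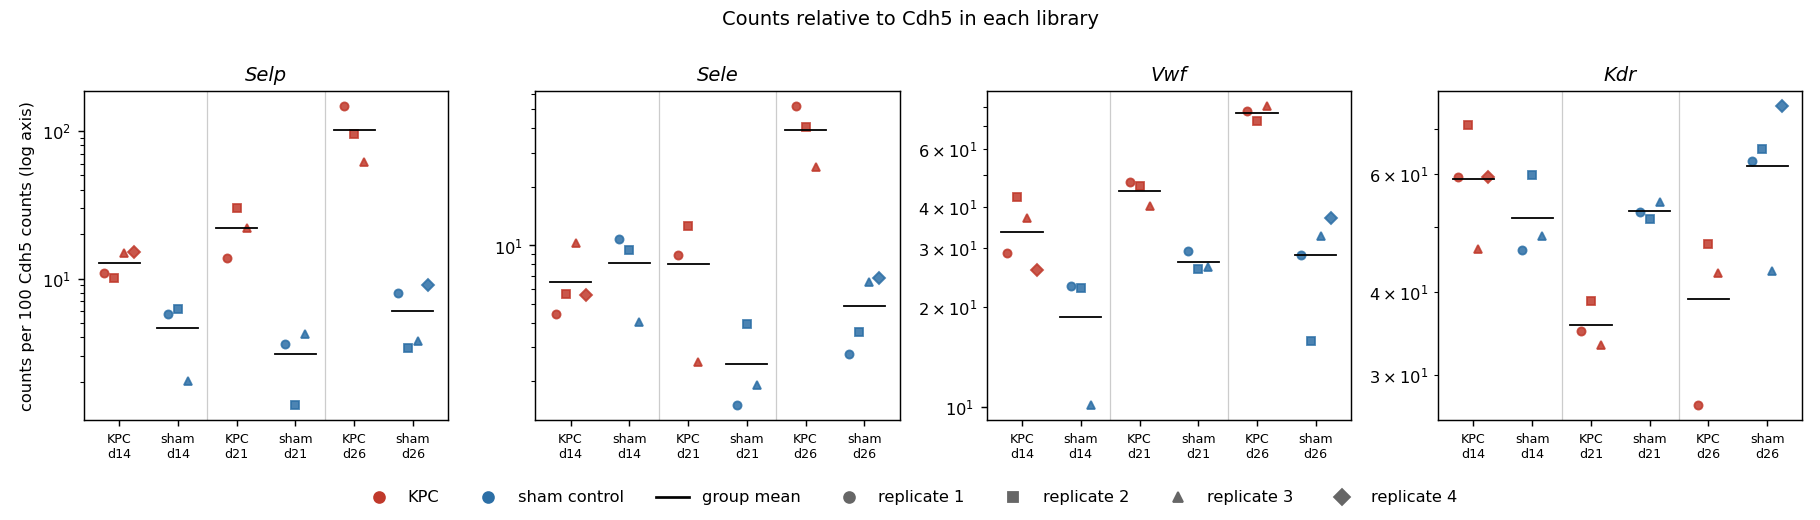
Counts of Selp, Sele, Vwf and Kdr per 100 Cdh5 counts in each library on a log axis, KPC in red and sham control in blue, with replicate numbers as marker shapes and group means as black lines. Selp and Vwf ratios are higher in every KPC library than in every control of the same day, the Sele ratio is so at day 26, and the Kdr ratio is lower in all KPC libraries of day 21.

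The 10 genes varied together within groups. After the mean of each of the 6 groups was removed from log2 CPM, the median Pearson correlation over the 28 pairs of the 8 endothelial markers was 0.90 across the 20 libraries, from 0.72 for Cldn5 with Sox17 to 0.98 for Pecam1 with Sox17. Selp correlated with the mean of the 8 markers at 0.90 and Sele at 0.85, and Selp with Sele at 0.81. By Spearman's rank correlation these 4 values were 0.90, 0.85, 0.80 and 0.71. Beside them, the median correlation of 11473 genes with the endothelial mean was -0.06, and 57 of these genes, 0.497%, reached 0.9. The 11473 genes include the 10 genes themselves. All values share the scaling over the 20 libraries.

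Some pairs leaned on a few libraries. Without KPC replicate 1 of day 26 and KPC replicate 1 of day 21, the libraries farthest from the median of the endothelial mean, the median pair was at 0.83, Selp with the endothelial mean at 0.84, Sele at 0.75 and Selp with Sele at 0.72. Within the 10 KPC libraries the 4 values were 0.93, 0.93, 0.91 and 0.91. Within the 10 control libraries they were 0.86, 0.83, 0.68 and 0.53, where the selectin counts were low. In controls of day 14, replicate 3 had the lowest level of all 10 genes, and in KPC libraries of day 21, replicate 3 did.

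**Figure D4:**
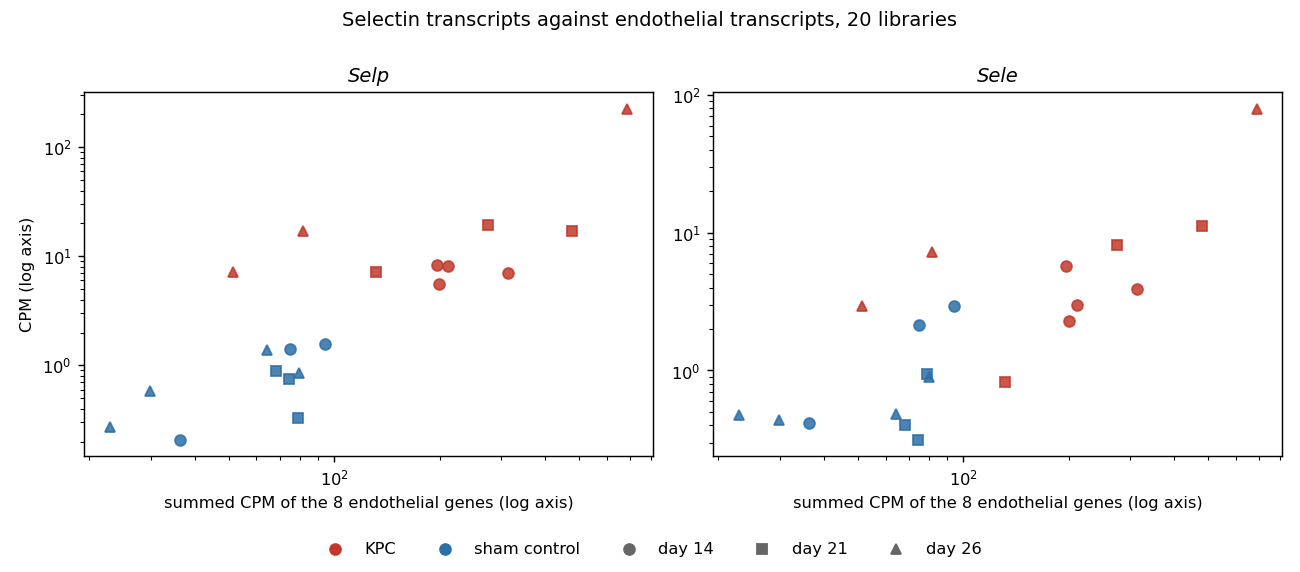
Selp (left) and Sele (right) in CPM against the summed CPM of the 8 endothelial markers in each of the 20 libraries, both axes logarithmic, KPC in red and sham control in blue, with marker shapes for the day. KPC replicates 2 and 3 of day 26 (red triangles at 81.3 and 51.3 CPM) sit at endothelial levels of the control libraries and above all controls for Selp.

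The genes most like the endothelial mean were, among those that are not members, Mmrn2, Ablim3, Aqp1, Mcam, Cd93, Nos3, Adgrf5 and Gata2, at correlations of 0.97 to 0.99 over the 20 libraries. Mmrn2 encodes an endothelial matrix protein, Nos3 the endothelial nitric oxide synthase and Aqp1 a water channel of capillaries. Those most like Selp were Apold1, Cd36, Mcam, Mmrn2, Robo4, Ablim3, Lama5 and Ptprb, at 0.91 to 0.94. Those most like Sele were Epas1, Adgrg1, Pgm5, Kcna1, Myh11, Ptprb, Tagln and Tpd52, at 0.90 to 0.94, of which Myh11 and Tagln encode contractile proteins of smooth muscle.

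A list of 24 further pan-endothelial genes was measured in the same libraries. It comes from the same mice, was chosen with earlier results of these data known, and is no independent support for the 10 genes. At day 14 edgeR called 4 of 24 higher in KPC and 0 lower, with an adjusted p under 0.05 over all genes, where 0.682% of all genes were called higher and 0.435% lower. They were the adhesion receptor gene Adgrl4 (log2 fold change 1.85 ± 0.25, adjusted p 0.0038), the adhesion molecule gene Icam2 (2.07 ± 0.40, adjusted p 0.0307), the transcription factor gene Fli1 (1.12 ± 0.22, adjusted p 0.0327) and She (2.04 ± 0.41, adjusted p 0.0342). The median of the list was 1.40, beside 0.01 over all genes, and 22 of 24 values were positive. The count was 14 without control replicate 1, beside 0.728% of all genes called higher. It was 1 without control replicate 2 (beside 0.64%) or KPC replicate 2 (0.189%). It was 2 without control replicate 3 (0.183%), KPC replicate 1 (0.342%) or KPC replicate 3 (0.4%). DESeq2 called 16 higher, beside 2.37% of all genes.

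At day 21 edgeR called 13 of the 24 genes higher and 2 lower, where 6.38% of all genes were called higher and 6.11% lower. Among those that rose were Mmrn2 (log2 fold change 2.33 ± 0.40, adjusted p 0.0065), Sox7, a relative of Sox17 (1.86 ± 0.36, adjusted p 0.0061), and Robo4, a guidance receptor gene of endothelium (2.40 ± 0.43, adjusted p 0.0077). The median was 1.89, beside 0.01 over all genes. Without control replicate 1, 2 or 3 edgeR called 4, 5 or 4 of the list higher, beside 2.76%, 3.08% and 3.35% of all genes. In the same refits it called 0, 1 or 1 of the list lower, beside 2.53%, 2.6% and 2.95%. DESeq2 called 18 higher and 2 lower, beside 8.17% and 7.03% of all genes. At day 26 edgeR called 0, with 14 higher and 2 lower at an unadjusted p under 0.05, which 20.3% of all genes passed as higher and 13.9% as lower. For 0 of the 24 genes were the KPC libraries of day 26 all above the controls, beside 14.5% of all genes. DESeq2 called 9 higher, beside 12.6% of all genes. Without KPC replicate 3 edgeR called 14 higher and 4 lower, beside 25.7% and 25.9% of all genes, and without KPC replicate 1 it called 0. The median was 2.69 with all libraries and 0.51 without KPC replicate 1.

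The genes that fell at day 21 were Ramp2 and Tek, and they were abundant in all libraries. Ramp2, which encodes a subunit of the adrenomedullin receptor, had 169, 140 and 140 CPM in KPC replicates of day 21 and 220, 218 and 206 CPM in controls, a log2 fold change of -0.52 ± 0.11 (edgeR adjusted p 0.0099). Tek, the angiopoietin receptor gene, had 397, 300 and 341 CPM in KPC replicates of day 21 and 481, 454 and 498 CPM in controls, a log2 fold change of -0.47 ± 0.12 (edgeR adjusted p 0.0271). Over all days Tek lay at 133 to 397 CPM in KPC libraries and 350 to 498 CPM in controls, and Eng, the gene of the TGF-β co-receptor endoglin, at 93.8 to 252 CPM in KPC libraries and 151 to 241 CPM in controls. Tie1, the partner receptor of Tek, lay at 3.41 to 70.5 CPM in KPC libraries and 2.83 to 13.1 CPM in controls.

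**Figure D5:**
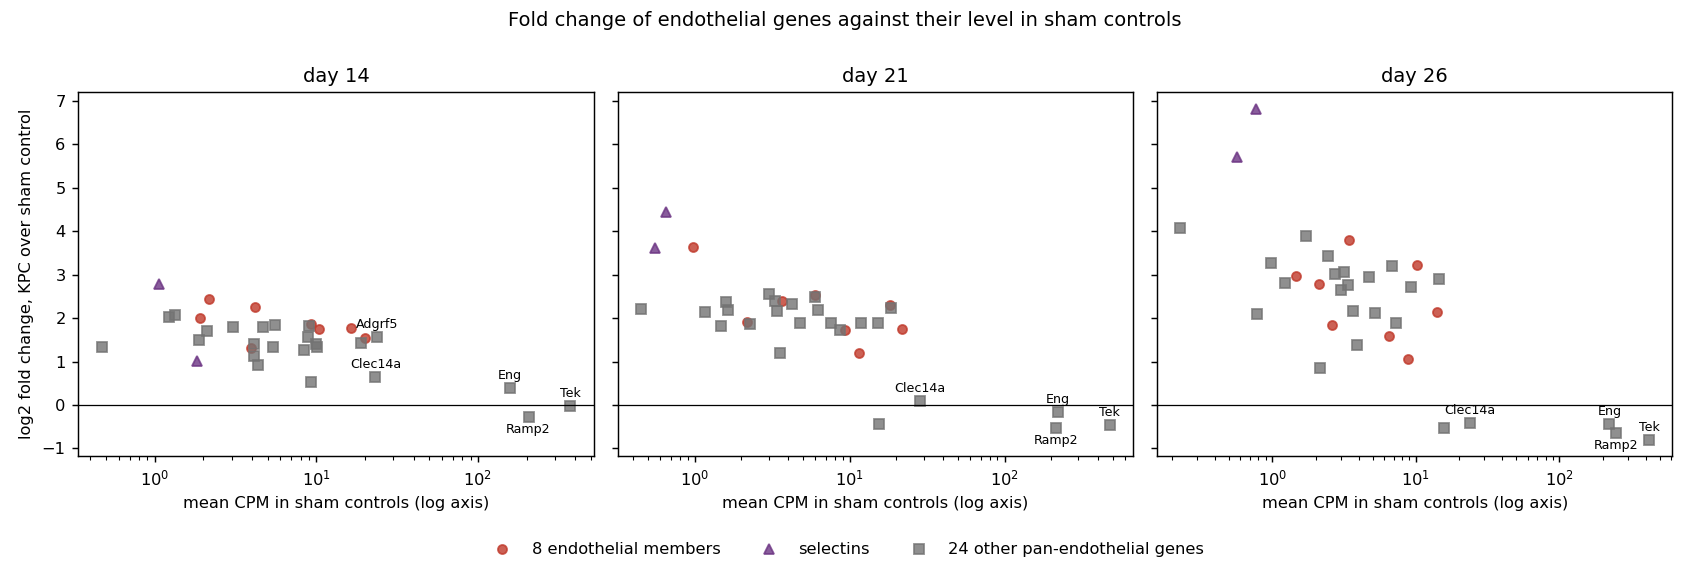
Log2 fold change of KPC over sham control against the mean CPM in sham controls (log axis) at each day, for the 8 endothelial genes (red circles), the selectins (purple triangles) and 24 other pan-endothelial genes (grey squares). Tek, Eng and Ramp2 are farthest to the right on this CPM scale and lie near or below 0, Tek at -0.47 and Ramp2 at -0.52 at day 21, while the selectins lie at the low end of control levels, with Selp the highest of the 10 genes at days 21 and 26 (4.44 and 6.82).

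Lists for vessel segments were counted in the same fits, where 0.682% of all genes were called higher and 0.435% lower at day 14. At day 21 the shares of all genes were 6.38% higher and 6.11% lower. Of 10 capillary genes, edgeR called 1 higher at day 14, Cd300lg (log2 fold change 1.42 ± 0.27, adjusted p 0.0334), and 5 higher at day 21. Among those of day 21 were Cd300lg (2.02 ± 0.22, adjusted p 2.1e-04), Gpihbp1, which anchors lipoprotein lipase to capillaries (2.51 ± 0.40, adjusted p 0.0047), and Rgcc (2.08 ± 0.31, adjusted p 0.0014). Of 7 tested arterial genes, the Notch ligand gene Dll4 rose at day 14 (2.10 ± 0.28, adjusted p 0.0038) and at day 21 (2.06 ± 0.38, adjusted p 0.0050), Sema3g rose at day 21 (2.17 ± 0.34, adjusted p 0.0023) and Jag1 fell at day 21 (-0.85 ± 0.13, adjusted p 0.0016). Of 7 venous and venular genes, Ackr1 fell at day 14 (-0.56 ± 0.12, adjusted p 0.0356), and Lrg1 (4.33 ± 0.73, adjusted p 0.0110) and Icam1, the gene of a leukocyte adhesion molecule (1.13 ± 0.13, adjusted p 3.0e-04), rose at day 21. Of 6 tested lymphatic genes at day 21, Flt4 (2.71 ± 0.48, adjusted p 0.0042) and Reln (1.82 ± 0.41, adjusted p 0.0148) rose, and Ccl21a had no count in any library. At day 26 edgeR called 0 of the capillary, arterial, venous and lymphatic genes. At an unadjusted p under 0.05, 5 of 9 tested capillary, 3 of 6 arterial, 4 of 7 venous and 3 of 5 lymphatic genes were higher and 0 lower, beside 20.3% and 13.9% of all genes.

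Of the venous and venular genes, Nr2f2, Lrg1 and Icam1 had all KPC libraries of day 26 above all controls. That was 3 of 7, beside 14.5% of all genes. Nr2f2 lay at 22.7 to 28.0 CPM in KPC libraries of that day and at 15.1 to 19.2 CPM in controls. Lrg1, a gene of secreted leucine-rich glycoprotein, lay at 5.54, 7.76, 6.71 and 2.31 CPM in KPC replicates of day 14 and at 1.66, 1.20 and 0.105 CPM in controls. At day 26 Lrg1 lay at 96.5, 14.8 and 5.45 CPM in KPC replicates and at 0.424, 0.497, 0.471 and 0.145 CPM in controls. Icam1 lay at 500, 186 and 116 CPM in KPC replicates of day 26 and at 74.0, 107, 57.6 and 69.6 CPM in controls. Over all days the lowest KPC library for Lrg1, at 2.31 CPM, was above the highest control, at 1.66 CPM. Lrg1 and Icam1 were singled out after their values were seen.

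Genes of selectin ligands were counted in the same fits. Of 8 tested genes of ligands and their glycosyltransferases, edgeR called Podxl higher at day 14 (log2 fold change 1.92 ± 0.35, adjusted p 0.0436), beside 0.682% of all genes. Of 7 tested at day 21 it called Glg1, which encodes an E-selectin ligand of the Golgi, lower (-0.36 ± 0.11, adjusted p 0.0469), beside 6.11% of all genes. Selplg, the gene of the main P-selectin ligand of leukocytes, lay at 0.194 to 2.34 CPM in KPC libraries and at 0.157 to 0.533 CPM in controls. Podxl encodes podocalyxin, a sialomucin that endothelium makes as well.

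Markers of other cells that carry P-selectin or that the gate should exclude were counted beside the members. The summed level of 12 platelet and megakaryocyte genes was 16.7 to 20.9 CPM in KPC libraries and 19.9 to 25.4 CPM in controls at day 14, 12.6 to 17.6 CPM in KPC libraries and 20.3 to 23.1 CPM in controls at day 21, and 16.4 to 23.7 CPM in KPC libraries and 16.4 to 26.0 CPM in controls at day 26. Itga2b, the gene of integrin αIIb, lay at 9.29 to 16.3 CPM in KPC libraries and 13.1 to 22.5 CPM in controls, and made up most of this sum in every library. Gp1ba was at 0 in all 10 KPC libraries and had 2 counts over the controls of day 14 and 0 in the other controls. Pf4, the platelet chemokine gene, lay at 0.499 to 0.894 CPM in KPC libraries of day 14 and 0.285 to 0.467 CPM in controls, which did not overlap. At day 21 Pf4 had 3.35, 0.573 and 0.292 CPM in KPC replicates and 1.22, 0.849 and 0.160 CPM in controls. At day 26 Pf4 reached 7.13 CPM in KPC replicate 1 of day 26 and lay at 0.0588 and 0.00 CPM in KPC replicates 2 and 3, against 0.00 to 0.485 CPM in controls. Those replicates 2 and 3 had Selp at 16.9 and 7.17 CPM. Ppbp of the same list lay at 0.167 to 0.940 CPM in KPC libraries of day 26 and at 0.00 to 0.0785 CPM in controls, which did not overlap. Gp5 lay at 0.0505 to 0.764 CPM in KPC libraries of that day and at 0.00 to 0.145 CPM in controls. Their highest values rest on 16 and 13 counts. The part of platelets in the level of Selp was not tested. Of the platelet list edgeR called 0 of 3 tested genes at day 14, where 0 passed an unadjusted p under 0.05. At day 21 it called 1 of 3, Gp1bb, which fell (log2 fold change -2.10 ± 0.39, adjusted p 0.0051), beside 6.11% of all genes called lower.

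Leukocyte markers were higher in part of the KPC libraries, most of all in replicate 1 of day 26. The summed level of 10 leukocyte genes was 16.4 to 36.9 CPM in KPC libraries and 8.05 to 11.1 CPM in controls at day 14, and 9.81 to 63.1 CPM in KPC libraries and 7.18 to 14.8 CPM in controls at day 21. At day 26 it was 264, 30.0 and 16.7 CPM in KPC replicates and 11.4 to 16.8 CPM in controls. Lyz2, a myeloid gene, gave 127, 6.47 and 6.41 CPM of this in the KPC replicates of day 26, and Cd3e, the T cell gene, was at 0 in all controls. EdgeR called 0 of 8 tested leukocyte genes at day 14, 0 of 6 at day 21 and 0 of 8 at day 26, with 5, 2 and 5 higher at an unadjusted p under 0.05, which 7.8%, 14.3% and 20.3% of all genes passed as higher. The summed level of 10 mural genes, which mark pericytes and smooth muscle, was 278 to 336 CPM in KPC libraries and 154 to 233.8 CPM in controls at day 14, 209 to 449 CPM in KPC libraries and 282 to 320 CPM in controls at day 21, and 84.3 to 462 CPM in KPC libraries and 188 to 241 CPM in controls at day 26. Of 10 tested mural genes edgeR called Notch3 higher at day 14 (log2 fold change 0.96 ± 0.21, adjusted p 0.0418), beside 0.682% of all genes. Of 9 tested at day 21 it called Abcc9 (0.63 ± 0.18, adjusted p 0.0404) and Mcam (2.04 ± 0.52, adjusted p 0.0477) higher and Cspg4 lower (-1.79 ± 0.33, adjusted p 0.0191), beside 6.38% of all genes called higher and 6.11% lower. The part of these cells in the levels of the 10 genes was not tested.

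The levels of the 10 genes were also compared between the controls of different days. The rule for the genes does not name this comparison, but they were chosen with earlier results of these data known. From day 14 to day 21 edgeR called 0 of the 10, with 1 higher and 1 lower at an unadjusted p under 0.05, while 23.4% of 13391 genes were called and 35.5% passed the unadjusted threshold, in either direction. Sele had the largest difference, at 0.553 ± 0.340 CPM in day 21 controls and 1.83 ± 1.29 CPM in day 14 controls (SD, n = 3 each), a log2 fold change of -1.72 ± 0.66 with an edgeR adjusted p of 0.0688. DESeq2 called Sele lower (-1.73 ± 0.69, adjusted p 0.0475), and so did edgeR without control replicate 3 of day 14, the library of its group lowest for all 10 genes (-2.19 ± 0.60, adjusted p 0.0239). Cldn5 lay at 3.66 ± 0.627 CPM in day 21 controls and 2.17 ± 0.518 CPM in day 14 controls, a log2 fold change of 0.77 ± 0.34 (edgeR adjusted p 0.114). From day 21 to day 26 edgeR and DESeq2 each called 0 of the 10, with 1 lower at an unadjusted p under 0.05 in edgeR, while 0.478% of genes were called and 12.1% passed the unadjusted threshold. Pecam1 was at 10.2 ± 5.24 CPM in day 26 controls (SD, n = 4) and 18.2 ± 2.62 CPM in day 21 controls (SD, n = 3), a log2 fold change of -0.86 ± 0.47 (edgeR adjusted p 0.518). Day and any batch between days cannot be told apart.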

How the data were processed

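Per the labels' protocols, sorted cells with RNA of an integrity number of 7 or more went into stranded mRNA libraries read as pairs of 59 bases. The authors deposited 3 tables of raw counts, 1 per day with a row per gene symbol, and the whole numbers carry no normalization. The submitters' processing notes name bcl2fastq 2.20, Bowtie, STAR, DESeq2 1.36.0, R 4.2.1 and the build mm10, with no role for each. Which program counted the reads, with which annotation and strand setting, is not given in the sources used here. All 20 columns were matched to samples by library code, and 25 symbols in each of the day 14 and day 21 tables had become calendar dates and are not named.

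KPC and control libraries were compared within each day in edgeR 4.0.16 (R 4.3.3). The fit used TMM factors, filterByExpr at a count of at least 10 and a total of at least 15, a robust quasi-likelihood fit and Benjamini-Hochberg adjustment over every gene in the fit. A gene was called at an adjusted p under 0.05, and a standard error is the absolute log2 fold change over the square root of F. All 10 genes passed the filter at each day. The controls were compared between days in a fit of the 10 control libraries. CPM values use TMM factors over the 20 libraries, and correlations use log2 CPM with a prior count of 2 over genes with a mean of at least 1. Kilobases are the union of exons in GENCODE vM21. The fits were tested on simulated data. Intervals were not computed for single counts, since reads without molecular identifiers are not independent molecules.

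The 10 genes and the marker lists were chosen with earlier results of these data known. From each other list, called genes were named, at most 3 per direction and day by smallest p (at day 14 also She, the last of 4), and the genes most like a pattern were the 8 with the highest correlation that are not members. Tie1, Eng, Selplg, Itga2b, Pf4, Ppbp, Gp5, Nr2f2, Lum, Lyz2 and the list extremes were named as marker checks after their values were seen. Alternatives were size factors of the median-of-ratios kind, no filter on low counts, DESeq2 1.42.0, a fit of all 20 libraries, replicate numbers as a block and leaving out each library. Promoter windows are from RefSeq on GRCm38.p6. Pecam1, Cdh5, Vwf and Sox17 had no window in that table.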

Additional observations from a re-analysis of the deposited data

Results flagged for a closer look

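Sele in control replicate 2 of day 26, at 0.895 CPM, lay far from the other 3 controls of that day, which had 0.485, 0.471 and 0.435 CPM. The gap to its nearest neighbour, divided by the range of the group, was above Dixon's critical value for 4 samples. This library was also below all 3 KPC libraries of its day. The values rest on 18 counts in replicate 2 and on 8, 12 and 9 counts in the other controls. The rule was applied 20 times, to each of the 10 genes in the groups of 4 libraries. Those groups are KPC at day 14 and control at day 26. Chance passes the rule in about 1 of 20, and the 10 genes vary together, so the 20 sets are not independent.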

How the results depend on the processing

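The log2 fold changes of the 10 genes between KPC and control were positive in all but 3 of 350 refits over the 3 days, those of Kdr, Egfl7 and Emcn at day 26 without KPC replicate 1, and 11 of the 350 values moved by more than the spread between replicates, 10 of them at day 26 without that library and 1 of them Emcn at day 21 without KPC replicate 1 (1.09 ± 0.41). Between days in the controls, 11 of 230 refitted values had the other sign, all of genes that were not called. The number of genes called at day 14, 149, was 278 with no filter on low counts, 563 by DESeq2, 2 in the fit of all 20 libraries and 40 to 255 when a library was left out. The 4 further pan-endothelial genes called at day 14 became 16 by DESeq2, 0 in the fit of all 20 libraries and 1 to 14 when a library was left out. At day 21, 1643 genes became 436 in the fit of all 20 libraries and 717 to 2644 when a library was left out, and the 15 pan-endothelial genes became 0 and 4 to 18. At day 26, where edgeR called 0, DESeq2 called 2784 genes and 9 of the pan-endothelial list, and the fit of all 20 libraries 4889 and 17. When a library was left out, edgeR called 0 to 6972 and 0 to 18. These counts of days 14, 21 and 26 join genes called higher and genes called lower. Of the 10 genes between controls of day 21 and day 14, DESeq2 called 1 and edgeR 0 to 1 when a library was left out. Of 60 recomputed log2 ratios to Cdh5, KPC over control, alternatives chosen after seeing the data, 24 moved by more than the spread between replicates, all of them with Pecam1 or Tie1 as the denominator and none without KPC replicate 1 of day 26. Of 20 recomputed correlations, 4 moved by more than the SD of the pairwise correlations among the 8 endothelial genes. The cause of these shifts was not tested.

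With replicate numbers as a block, edgeR called 361, 1545 and 0 genes at days 14, 21 and 26. At day 14 it called 10 of the pan-endothelial list and 7 of the 10 genes, all higher. Beside them, 1.63% of all genes were called higher and 1.07% lower. At day 21 it called 13 of the pan-endothelial list higher and 2 lower, and 8 of the 10 genes higher. Beside them, 6.04% of all genes were called higher and 5.7% lower. At day 26 it called 0 of either list. Same-numbered libraries correlated at -0.0976 to 0.128 in their deviations from the group means. These values showed no pairing by number, but groups this small cannot exclude it. The control levels of Selp and Sele rest on 4 to 62 counts per library, which limits every ratio to them.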
